A study of Mus musculus with 26 samples.

Results

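Fibroblasts sorted from the ventral skin of newborn mice were compared between the Prrx1-positive lineage (PPF) and Prrx1-negative cells (PNF) at postnatal day 1 (P1). The 6 P1 libraries, 2 of PPF and 4 of PNF, were taken by their labels from 24 bulk RNA libraries in a series of 26 samples. The mice carried the Prrx-Cre strain label in both groups, and no further allele or reporter, sex or treatment was given. The labels do not describe the gate of the sort or say whether libraries of a group came from separate animals. Part of the spread between them may be technical. Skin was minced and digested with collagenase for 60 min at 37 °C before sorting. The bulk series compared these lineages at several ages, and the P1 libraries address how they differ just after birth. Libraries are named by lineage and letter.

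Prrx1 is a homeobox transcription factor of early limb bud, lateral plate and craniofacial mesenchyme, and a Prrx1 Cre line marks cells by whether they or their ancestors were active at its enhancer, not by the Prrx1 mRNA they hold at collection. Ventral dermis derives largely from lateral plate mesoderm and dorsal dermis from somites, and fibroblasts keep patterns of HOX and other positional genes from where they arose. Around birth the dermis separates into an upper papillary layer, which signals to the epidermis and hair follicles, and a lower reticular layer and fascia, which make much of the fibrous matrix.

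Counts in genes ranged from 5724843 (PPF A) to 16791908 (PNF B) per library, and 12963 to 19419 genes had a count. The fibroblast label held for 5 of the 6 libraries. Summed over 9 fibroblast markers, the level was 1.18% of counts in PPF A and 2.29% in PPF B, 1.57% to 1.75% in PNF B, C and D, and 0.115% in PNF A. Col1a1, the main chain of fibrillar collagen I, had 4436 and 6460 CPM (counts scaled to library size) in PPF A and B, 402 in PNF A, and 9621, 3689 and 6900 in PNF B, C and D. Another defining marker, Vim, was at 0.36 CPM or less in all 6 libraries and did not pass the filter on low counts. The 2 PPF libraries correlated at r = 0.923 over genes and PNF C with PNF D at 0.948, whereas PNF A correlated with the others at 0.740 to 0.783. In PNF A, 174 genes were at 0 although each of the other 5 libraries had at least 5 CPM, against 0 to 7 such genes in any other library. Sexes were unevenly represented: PPF A had 356 CPM of Xist and none of Ddx3y, PPF B had 1.19 and 314, PNF A had 0 and 148, and PNF B to D held both transcripts. PPF A and PPF B thus differed in sex and did not come from the same animals. The part of these imbalances in the results was not tested.

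Of 13135 genes tested with edgeR's quasi-likelihood test, 0 passed an adjusted p of 0.05 (0%), and the smallest adjusted p was 0.736, with 845 genes at an unadjusted p under 0.05. DESeq2, an alternative, called 24 genes higher (0.183%) and 128 lower (0.974%) in PPF, and limma voom with quality weights called 1, Krt10. On simulated P1 counts with 200 genes changed 4-fold, edgeR recovered 0 with 0 false calls, and DESeq2 recovered 32 with 73 false calls. With 200 genes changed 16-fold, edgeR recovered 111 with 4 false calls, and DESeq2 recovered 177 with 114. The 0 calls of edgeR therefore do not show that the groups were alike. DESeq2 made more false calls than its threshold allows, so its adjusted p is given below as an alternative and not as a call. The differences below are therefore given as values per library, and edgeR's adjusted p was 0.736 or more for each. Both PPF libraries lay above all 4 PNF libraries for 1218 genes, which is 9.27% of those tested, and below all 4 for 1124 genes, which is 8.56%. Among these genes the mean differed at least 2-fold for 670 and 893. Over all tested genes the median log2 difference was -0.21, so individual differences can be read against a small general shift towards PNF. These counts rest on few libraries, and leaving out a library makes separation easier for every gene. On the same scaling and genes, the count above was 1919 (14.61%) without PNF B, 2402 (18.29%) without PPF A and 2583 (19.67%) without PPF B. Without PNF A, C or D the share above was 12.53%, 13.19% or 10.8%. The count below was 2292 (17.45%) without PNF A, 1712 (13.03%) without PNF C, 2325 (17.7%) without PPF A and 2396 (18.24%) without PPF B. Without PNF B or D the share below was 11.88% or 9.79%. Counts for gene lists given later, with or without a library left out, are to be read beside the matching shares.

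The genes with the smallest p among those higher in both PPF libraries span epidermal, positional and signalling functions. The keratin Krt10, made by epidermal cells that have left the basal layer, had 780 and 1009 CPM in PPF A and B. Its PNF levels were 23.9, 76.0, 48.3 and 29.1 CPM in A to D, a log2 difference of 4.33 ± 0.53 (SE) with a DESeq2 adjusted p of 1.35e-08. Skint9, a member of a gene family expressed in skin epithelium and thymus, had 12.6 and 27.2 CPM in PPF and 0, 0.118, 0 and 0 in PNF. Both are genes of keratinocytes, and in bulk samples fewer cells of a type and less RNA per cell cannot be told apart.

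Inka1, an inhibitor of the kinase PAK4, had 336 and 375 CPM in PPF A and B and 79.2, 71.5, 98.0 and 102 in PNF A to D. The log2 difference was 2.02 ± 0.33, and the libraries of each group lay close together. The interferon-induced membrane protein gene Ifitm1 had 124 and 67.4 CPM in PPF against 7.51, 13.2, 15.6 and 13.7 in PNF. Sox18, a transcription factor of endothelium and of the dermal papilla, had 398 and 450 CPM in PPF against 127, 118, 63.9 and 76.9 in PNF. The DESeq2 adjusted p of Ifitm1 and Sox18 were 0.000234 and 0.00567. Absence of overlap was a condition for naming them and is not a separate result.

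Penk encodes the enkephalin precursor, an opioid peptide that mesenchyme also makes. Its level was 1973 and 1915 CPM in PPF A and B and 177, 556, 492 and 440 CPM in PNF A to D, 4.67-fold higher on the mean. The calcium-binding S100 genes S100a6 and S100a10 were the most abundant of the 14 per transcript length, with mean PPF levels of 4302 and 3278 TPM (scaled by transcript length) against 1407 and 955 TPM in PNF. In CPM, S100a10 had 2561 and 2187 in PPF and 178, 555, 758 and 473 in PNF, with a log2 difference of 2.27 ± 0.55. For both S100 genes the PNF libraries spread more widely than the PPF libraries in CPM.

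The remaining genes of this direction were Irx1, Hoxb9, Atoh8, Arsi, Eif4ebp1 and Lfng, with mean differences of 2.97-fold (Atoh8) to 5.24-fold (Hoxb9). Atoh8 is a basic helix-loop-helix transcription factor and had 193 and 146 CPM in PPF and 51.2 to 68.1 in PNF. Lfng, a glycosyltransferase that modifies Notch receptors, had 96.1 and 77.1 CPM in PPF and 23.8 to 33.5 in PNF. Eif4ebp1, a repressor of cap-dependent translation, had 869 and 483 CPM in PPF and 125 to 286 in PNF. For each of these genes all PNF libraries lay below both PPF libraries, as the rule for naming them required.

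**Figure D1:**
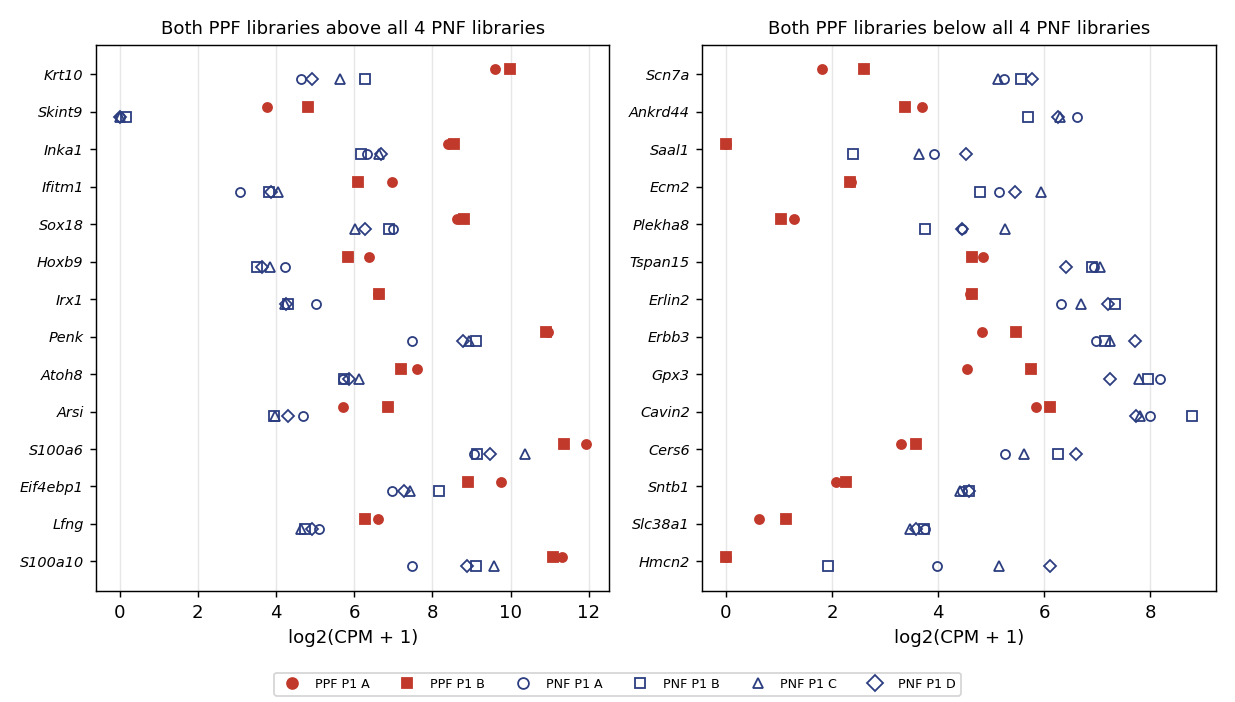
Levels of the 14 genes with the smallest p in each direction among those without overlap, as log2(CPM + 1) on the x axis, with filled symbols for the 2 PPF libraries and open symbols for the 4 PNF libraries. On the left every PPF symbol lies to the right of every PNF symbol, for example 336 and 375 CPM against at most 102 CPM for Inka1, and on the right the order is the opposite.

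Among genes lower in both PPF libraries, several are known from nerve and its support cells or from vessels. Scn7a, a sodium channel of Schwann cells and sensory neurons, had 2.52 and 5.10 CPM in PPF A and B and 36.8, 46.2, 34.0 and 53.8 CPM in PNF A to D. Its log2 difference was -3.47 ± 0.61, with a DESeq2 adjusted p of 4.61e-06. Erbb3, the neuregulin receptor of Schwann cell precursors and epithelia, had 27.2 and 43.3 CPM in PPF and 125, 141, 150 and 210 in PNF. The log2 difference of Erbb3 was -2.15 ± 0.45.

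Cavin2, a caveolar coat protein abundant in endothelium and fat, had 56.8 and 68.1 CPM in PPF and 210 to 441 in PNF. Gpx3, a secreted glutathione peroxidase, had 22.3 and 53.1 CPM in PPF and 150 to 291 in PNF. Ecm2, a matrix protein with leucine-rich repeats, had 4.15 and 4.03 CPM in PPF and 26.6 to 60.2 in PNF. Absence of overlap between the groups was a condition for naming these 3.

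Hmcn2, a hemicentin of the extracellular matrix, was at 0 in both PPF libraries and at 14.9, 2.78, 34.5 and 68.3 CPM in PNF A to D. Against a floor of 3 counts over the PPF libraries it was at least 140-fold lower in PPF. Saal1 was also at 0 in both PPF libraries, against 14.1, 4.25, 11.5 and 22.0 CPM in PNF, at least 60.4-fold lower. In all, 448 of the 13135 tested genes were at 0 over the PPF group and 109 of these had a count in every PNF library. Of these, 0 had at least 5 CPM in every PNF library. The scaled totals were 5548600 and 8430500 counts in the 2 PPF libraries and 6392000 to 16931000 in the 4 PNF libraries. The rest of the 14, Ankrd44, Plekha8, Tspan15, Erlin2, Cers6, Sntb1 and Slc38a1, were 4.36-fold (Tspan15) to 18.2-fold (Plekha8) lower on the mean, and include the ceramide synthase Cers6 and the glutamine transporter Slc38a1.

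Positional genes differed between the libraries of the groups, and in different ways within one family. Of 13 tested HOX genes of groups 9 to 13, 4 were above all PNF libraries (Hoxa9, Hoxb9, Hoxc9 and Hoxc10) and 0 below, but their median log2 difference was -1.99, beside -0.21 over all genes, because 8 of the 13 were negative. Hoxb9 (chromosome 11, 96271457 to 96276595, plus strand, GRCm38) had 82.5 and 56.5 CPM in PPF and 17.8, 10.5, 13.3 and 11.4 in PNF A to D. Its log2 difference was 2.39 ± 0.45, with a DESeq2 adjusted p of 0.00226. The other 3 were 2.01-fold to 2.31-fold higher on the mean. Of the exonic bases of Hoxb9, 11.8% lie in a single transcript of those listed in the deposited tables, and counts per transcript may cover only that part. Other genes named here with low shares include Cyp26b1 (5.3%), Lrig1 (13.4%), Slc38a1 (17.5%), Dcn (18.7%) and Mest (22.2%).

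Hoxd13 and Hoxa13, the HOX genes of the most distal limb and of the genital and tail region, behaved in another way. Hoxd13 was at 0 in PPF A, PPF B and PNF A, at 7.15 CPM in PNF B, and at 189 and 147 CPM in PNF C and D. Hoxa13 was at 0 in the same 3 libraries, at 2.07 CPM in PNF B and at 70.1 and 66.9 CPM in PNF C and D. These levels therefore divided PNF C and D from the other PNF libraries as well as from PPF. Isl1, a LIM homeobox factor of hindlimb and genital mesenchyme, had 0 and 1.54 CPM in PPF, 2.82 and 33.5 in PNF A and B, and 288 and 269 in PNF C and D. Sim1 followed with 0 in both PPF libraries and in PNF A, 5.14 CPM in PNF B, and 37.2 and 50.1 in C and D. Without PNF A, 6 HOX genes of groups 9 to 13 lay below all PNF libraries, against 0 with it.

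Of 25 tested limb and lateral plate factors, 4 were above all PNF libraries (Twist2, Osr2, Tbx18 and Hand2) and 1, Isl1, was below, against 4 below without PNF A, 5 without PNF B, 6 without PPF A and 3 without PPF B, where 7 were above. Twist2 (chromosome 1, 91801461 to 91848028, plus strand), a basic helix-loop-helix factor of dermal mesenchyme, had 1006 and 717 CPM in PPF and 54.6, 220, 205 and 212 in PNF A to D. The log2 difference of Twist2 was 2.31 ± 0.56, with a DESeq2 adjusted p of 0.0407. Osr2 had 539 and 542 CPM in PPF and 101 to 420 in PNF, and the heart and limb factor Hand2 had 21.1 and 11.7 CPM in PPF and 3.91 to 10.5 in PNF. En1, a homeobox gene of ventral ectoderm and of somite-derived dermis, had 51.9 and 34.8 CPM in PPF and 2.503, 12.6, 10.9 and 10.2 in PNF, with a log2 difference of 2.25 ± 0.68 and a DESeq2 adjusted p of 0.105.

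Irx1, an Iroquois homeobox factor, stood at 97.1 and 98.2 CPM in PPF against 31.8, 18.7, 17.6 and 18.2 in PNF A to D. Msx1 and Msx2, targets of BMP signalling in limb and skin mesenchyme, overlapped. Msx1 had 21.6 and 48.6 CPM in PPF, 40.0 CPM in PNF B, and 586, 519 and 411 CPM in PNF A, C and D. Of the 12 somite and dorsal dermis factors tested, En1 was above and Meox2 and Myf5 were below all PNF libraries, and 10 were negative. Without PNF A 5 of them were below, and without PPF A 4. Prrx1 itself, at 61.5 and 45.4 CPM in PPF and 32.7 to 54.6 in PNF, overlapped and differed by 0.39 ± 0.43 on the log2 scale.

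**Figure D2:**
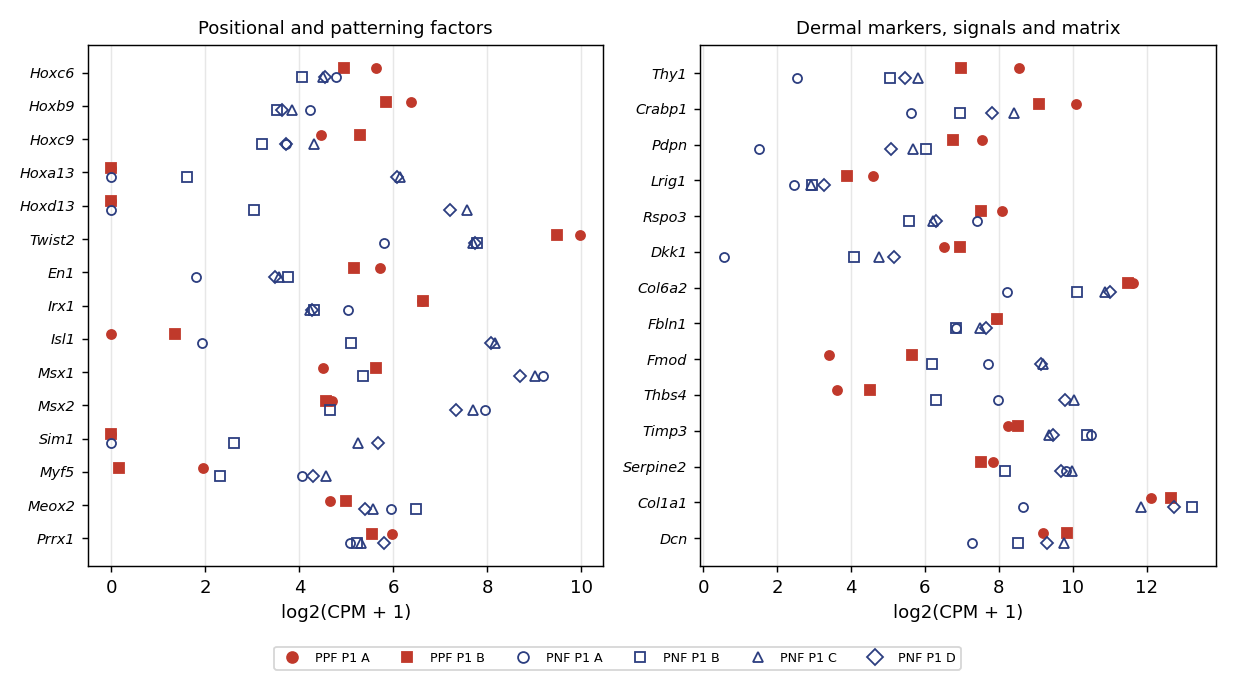
Levels of positional factors (left) and of dermal markers, signals and matrix genes (right) per P1 library, as log2(CPM + 1), with filled symbols for PPF and open symbols for PNF. Hoxd13 and Hoxa13 are high in PNF C and D and at 0 in both PPF libraries and in PNF A, while the PPF symbols of Hoxb9, Twist2, En1 and Irx1 lie above all PNF symbols.

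Of 15 tested papillary fibroblast genes, 4 were above all PNF libraries (Crabp1, Lrig1, Pdpn and Cyp26b1) and 0 below, beside 9.27% and 8.56% of all genes, and the other 11 overlapped. In this list 6 genes were negative, the median log2 difference was 0.65, and 1 gene was below without PNF B, without PPF A or without PPF B. Crabp1, a cytoplasmic retinoic acid binding protein of upper dermis, had 1083 and 549 CPM in PPF and 48.3, 123, 337 and 224 in PNF A to D. Its log2 difference was 2.16 ± 0.70, with a DESeq2 adjusted p of 0.182. Pdpn, the podoplanin of upper dermis and lymphatic vessels, had 187 and 108 CPM in PPF and 1.88, 65.0, 50.3 and 33.2 in PNF. For Crabp1 and Pdpn the lowest PNF value was that of PNF A, the library with the low sum of fibroblast markers. Cyp26b1, a retinoic acid hydroxylase, was 2.06-fold higher on the mean, with 5.3% of its exonic bases in a single listed transcript.

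The fibroblast marker Thy1 had 371 and 126 CPM in PPF and 4.85, 32.6, 55.8 and 43.1 in PNF A to D, and was the 1 of 8 tested fibroblast markers without overlap (3 above without PPF A, and 2 without PNF C, PNF D or PPF B). Dcn, the decorin gene, had 586 and 928 CPM in PPF and 155 to 868 in PNF, so its groups overlapped. Of 17 reticular and fascia genes, Ly6a, Ackr3 and Dact2 were above and Gpx3 and Mest below, with 7 above without PPF A. Ly6a, which encodes Sca-1 of lower dermal fibroblasts and other progenitors, had 717 and 934 CPM in PPF and 336, 349, 242 and 123 in PNF, a log2 difference of 1.65 ± 0.47. Of 21 dermal papilla and sheath genes, 3 were above and 2 below, beside 9.27% and 8.56% of all genes. The count below was 6 without PNF B and 4 without PPF A.

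Fibrillar and other collagens did not separate the groups: 1 of 18 was above all PNF libraries, 0 below, and the median log2 difference was -0.07. Without PNF A, 5 collagens were below, beside 17.45% of all genes. Without PPF B, 5 were above, beside 19.67% of all genes. The gene above was Col6a2, a chain of beaded collagen VI, at 3165 and 2866 CPM in PPF and 297, 1101, 1895 and 2064 CPM in PNF. Fbln1, a fibulin of elastic fibres and basement membranes, had 242 and 247 CPM in PPF and 115, 113, 179 and 200 in PNF. Basement membrane genes went the other way, with 9 of 10 negative and a median of -0.94, although only 2 of 10 lay below all PNF libraries, against 7 without PNF A and 5 without PPF B. Nid2, which links laminin and collagen IV networks, overlapped, with 93.7 and 103 CPM in PPF, 94.2 in PNF A and 621 to 821 in PNF B, C and D. The endothelial marker sum was 0.0343% and 0.0521% of counts in PPF, 0.240% and 0.284% in PNF A and B, and 0.0118% and 0.0166% in PNF C and D, and its part in the basement membrane values was not tested.

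Of 12 tested tendon, cartilage and bone genes, 3 were below all PNF libraries, beside 8.56% of all genes, 1 was above and 3 were positive. None of them passed edgeR. The DESeq2 adjusted p was under 0.05 for 3, all lower in PPF, beside 0.974% of all genes. The limb and lateral plate list and the BMP list also had 3 such genes each. Thbs4, a thrombospondin of tendon and muscle attachments (chromosome 13, 92751590 to 92794818, minus strand), had 11.4 and 21.7 CPM in PPF and 250, 77.6, 1056 and 895 in PNF A to D. Fmod, the fibromodulin that regulates collagen fibril assembly, had 9.55 and 49.1 CPM in PPF and 208, 71.8, 586 and 565 in PNF, with a DESeq2 adjusted p of 0.0239. Chodl, the chondrolectin gene of muscle and tendon, had 12.98 and 2.25 CPM in PPF and 30.8, 16.7, 347 and 284 in PNF. In all 3 genes PNF C and D were the highest libraries. Those libraries also had the highest skeletal muscle marker sums, 0.198% and 0.172% of counts against 0.0107% to 0.0325% elsewhere, and the part of muscle or its attachments was not tested. The tendon, cartilage and bone gene above was Ibsp, with 21.6 and 20.6 CPM in PPF and 0 to 3.66 in PNF. Without PNF A, 7 of the list were below and 2 above.

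Among matrix proteases and inhibitors, 2 of 28 were above and 4 below, beside 9.27% and 8.56% of all genes. The count above was 4 without PNF B, PPF A or PPF B. Timp3, a matrix-bound metalloprotease inhibitor, had 303 and 366 CPM in PPF and 1446, 1352, 653 and 702 in PNF A to D. Serpine2, a protease inhibitor also called nexin, had 230 and 183 CPM in PPF and 908, 287, 1006 and 820 in PNF. Adamts1, an aggrecan- and versican-cutting protease, had 430 and 640 CPM in PPF and 828 to 1181 in PNF. Mmp19 was the larger of the 2 above, at 154 and 177 CPM in PPF and 19.4 to 115 in PNF. With all 6 libraries, the matrix lists other than collagens and basement membrane had members in both directions.

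**Figure D3:**
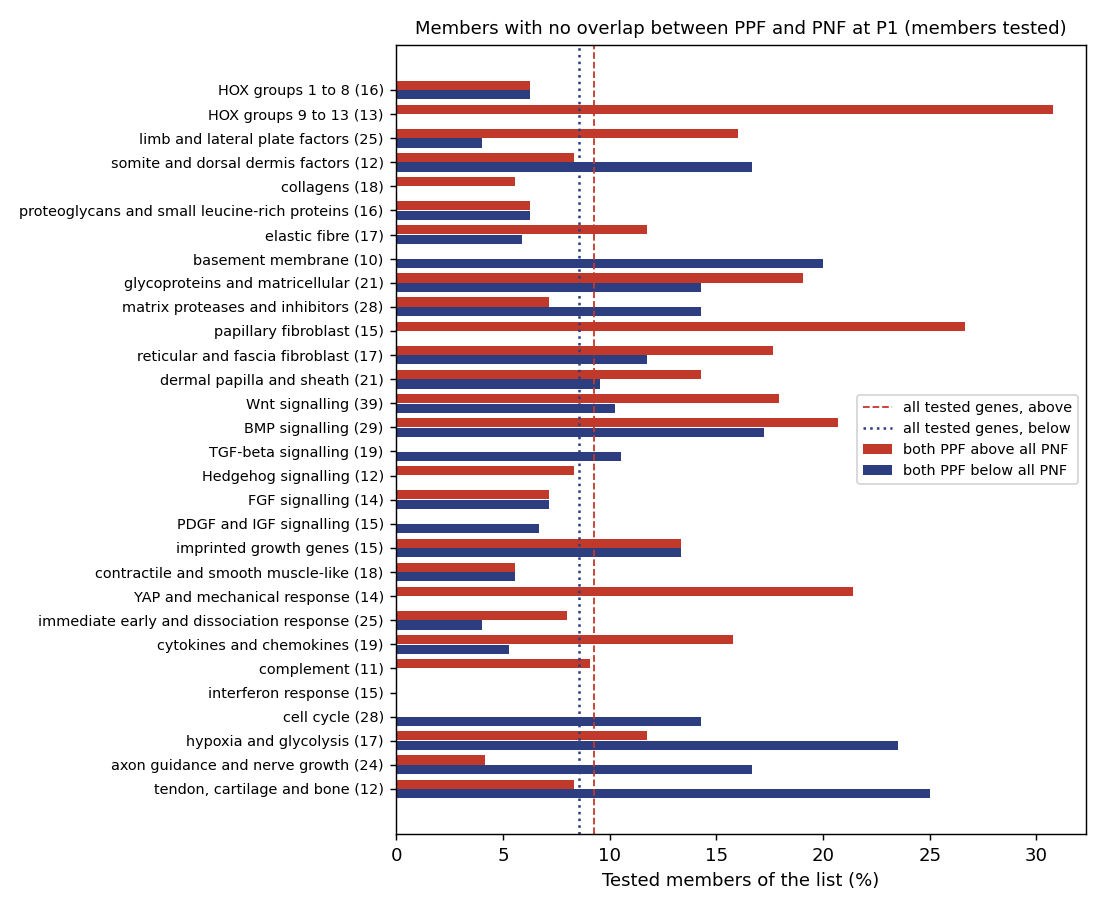
Share of the tested members of each fibroblast-related list whose 2 PPF libraries lay above (red) or below (blue) all 4 PNF libraries, with the number tested in brackets and the shares over all tested genes as lines at 9.27% and 8.56%. With 10 to 39 tested members in each list shown, single genes move these shares by several percentage points. The lists with the highest share above are HOX groups 9 to 13 (4 of 13) and papillary fibroblast (4 of 15).

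Of 39 ligands, receptors and inhibitors of Wnt signalling, 7 were above all PNF libraries and 4 below, beside 9.27% and 8.56% of all genes. The count above was 12 without PNF A and 14 without PPF A, and the count below was 8 without PPF B. The secreted inhibitor Dkk1 had 91.6 and 123 CPM in PPF and 0.469, 15.9, 25.9 and 34.7 in PNF A to D. Rspo3, an R-spondin ligand that amplifies Wnt responses, had 271 and 184 CPM in PPF and 170, 46.9, 74.2 and 77.3 in PNF. Among receptors, Fzd2 was above, whereas Fzd1, Fzd4 and Fzd10 were below. Fzd1 had 76.6 and 135 CPM in PPF and 235, 160, 305 and 386 in PNF. Neither Dkk1 (DESeq2 adjusted p 0.383) nor Fzd1 (0.276) passed a test.

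In the BMP pathway, 6 of 29 genes were above and 5 below, beside 9.27% and 8.56% of all genes, and 10 were below without PNF B. Those above included the antagonists Grem1, Nog and Fstl3, and those below the ligands Bmp2, Bmp5, Bmp6 and Gdf6, as named after their values were seen. Of these, Fstl3 and Bmp6 had low P1 means, 5.73 and 0.337 CPM in PPF and 1.17 and 1.77 in PNF, scaled over 16 libraries. The log2 difference of Bmp2 was -0.65. Over the whole list 15 genes were positive and 14 negative, with a median log2 difference of 0.031. Bmp5 had 0 and 0.712 CPM in PPF and 25.5, 3.66, 10.5 and 10.1 in PNF A to D, with a DESeq2 adjusted p of 0.0103. Gdf6, a BMP ligand of joints, was at 0 in both PPF libraries and at 23.6, 0.413, 18.8 and 18.8 CPM in PNF, at least 71.8-fold lower. One ligand, Bmp3, which opposes other BMPs, was above, at 180 and 100.0 CPM in PPF and 31.0 to 99.1 CPM in PNF, so PPF B exceeded PNF D by less than 1 CPM.

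Hedgehog, FGF and TGF-beta genes gave few separated members with all 6 libraries. Without PPF A, 3 of 12 Hedgehog and 4 of 14 FGF genes were above, beside 18.29% of all genes. With it, 1 of each was above, beside 9.27% of all genes. Gli1, a Hedgehog target, had 114 and 101 CPM in PPF and 75.3, 54.3, 37.6 and 84.7 in PNF A to D, and was the 1 of 12 Hedgehog genes above. Spry2, a feedback inhibitor of FGF signalling, had 122 and 93.6 CPM in PPF and 38.8 to 63.8 in PNF. Tgfb2 had 5.05 and 8.90 CPM in PPF and 17.99, 17.5, 42.8 and 43.5 in PNF, and together with Ltbp1 was below among 19 TGF-beta genes, of which 6 were below without PNF A or without PPF B and 3 above without PNF B or without PPF B, against 0 above with all. Foxf2, a forkhead factor of ventral mesenchyme, overlapped, at 0 and 0.237 CPM in PPF, 0 in PNF A, and 14.7, 55.6 and 46.9 CPM in PNF B, C and D.

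Of 28 cell cycle genes, 23 were negative without passing a test, beside 7670 of all 13135 genes, and the median log2 difference was -0.54. Their summed level overlapped between the groups. It was 0.259% and 0.247% of counts in PPF A and B, and 0.565%, 0.213%, 0.322% and 0.328% in PNF A to D. Of the 28 genes, 4 lay below all PNF libraries (11 without PNF B, 15 without PPF B) and 0 above (3 without PPF A). Top2a, a topoisomerase of dividing cells, had 42.0 and 77.6 CPM in PPF and 279, 104, 180 and 188 in PNF A to D. Mki67 had 41.5 and 87.4 CPM in PPF and 560, 128, 88.0 and 120 in PNF, so PPF B and PNF C differed by less than 1 CPM. Of 14 genes of the YAP and mechanical response, 3 were above (Ccn1, Lats2 and Vgll3) and 0 below, with 7 above without PPF B. Ccn1, a matricellular YAP target, had 10044 and 12841 CPM in PPF and 6425, 4921, 4722 and 5338 in PNF. Ccn1 also answers to tissue dissociation, and of the 25 immediate early and dissociation genes tested 22 were negative, 2 lay above all PNF libraries and 1 below. The count below was 12 without PNF B, 5 without PNF C, 6 without PPF A and 7 without PPF B. This list had summed levels of 3.004% and 3.59% in PPF, 7.76% in PNF A and 2.49% to 4.32% in PNF B, C and D.

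The axon guidance and nerve growth list had 4 of 24 genes below and 1 above, beside 8.56% and 9.27% of all genes. The count below was 8 without PNF A or without PPF A. Above were 4 without PNF D and 5 without PPF B, where 5 were below. Plxna2, a semaphorin receptor, had 10.5 and 33.8 CPM in PPF and 200, 195, 84.3 and 84.9 in PNF A to D, with a DESeq2 adjusted p of 0.0254. Sema3c, a secreted semaphorin, had 4.15 and 8.07 CPM in PPF and 37.9, 23.9, 15.0 and 23.3 in PNF. In the hypoxia and glycolysis list, 4 of 17 gene records lay below and 2 above (4 above without PNF B), beside 8.56% and 9.27% of all genes. Bnip3 had 40.9 and 73.3 CPM in PPF and 403, 753, 82.1 and 74.6 in PNF, so the margin between PPF B and PNF D was small.

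RNA of other cell types was unevenly spread over the libraries. Suprabasal and cornified keratinocyte genes were the list with the largest median log2 difference, 3.07, with 16 of 17 positive, 6 above all PNF libraries and 0 below. The count above was 12 without PNF B and 13 without PPF B. Their summed level was 0.687% and 0.591% of counts in PPF and 0.0175% to 0.132% in PNF, and 2 of the 21 genes were at 0 in PPF. Krtdap, a secreted protein of differentiating keratinocytes, had 1451 and 883 CPM in PPF and 13.6, 330, 24.3 and 18.9 in PNF A to D. Lor, the loricrin of the outermost layers, had 1180 CPM in PPF A but 12.3 CPM in PPF B, just below the PNF range of 13.5 to 25.9, so PPF A alone set its high mean. Basal keratinocyte genes overlapped, with 0 of 11 separated, against 4 above without PNF B, and Krt14 had 793 and 1018 CPM in PPF and 373, 1204, 39.9 and 64.3 in PNF.

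Schwann and neural genes were all negative, 14 of 14, beside 7670 of all 13135 genes. Of the 14, 4, including Erbb3, Foxd3 and Sox10, lay below all PNF libraries, against 8 without PNF A. The summed level was 0.00955% and 0.00917% in PPF, 0.0178% and 0.0233% in PNF A and B, and 0.0604% and 0.0589% in PNF C and D. None of the 14 genes was at 0 over the PPF group. Scn7a and Erbb3, described above, are also genes of nerve support cells, and the part of such cells in their levels was not tested.

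The 14 hair follicle epithelium genes, 10 endothelial genes and 12 skeletal muscle genes tested were also all negative, beside 7670 of all 13135 genes. The endothelial sums of PPF A and B, 0.0521% and 0.0343%, were below those of PNF A and B (0.240% and 0.284%). They were above those of PNF C and D (0.0118% and 0.0166%). Among these 3 lists, only muscle had separated members with all 6 libraries, 2 below all PNF libraries, against 8 without PNF A and 4 without PNF B or without PPF B. Of the hair follicle genes, 4 were below without PPF B, 3 without PNF C and 2 without PPF A. Acta1, the actin of skeletal muscle, had 7.21 and 77.2 CPM in PPF and 108, 105, 640 and 548 in PNF A to D. PNF A had the highest erythroid sum, 9.19% of counts against 0.467% to 1.68% elsewhere, and PNF B the highest adipocyte sum, 2.65% against 0.0889% to 0.433%. Thy1 counts in both the fibroblast and the T and NK cell lists, and the latter sum, at 0.0389% and 0.0135% in PPF, contains it.

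**Figure D4:**
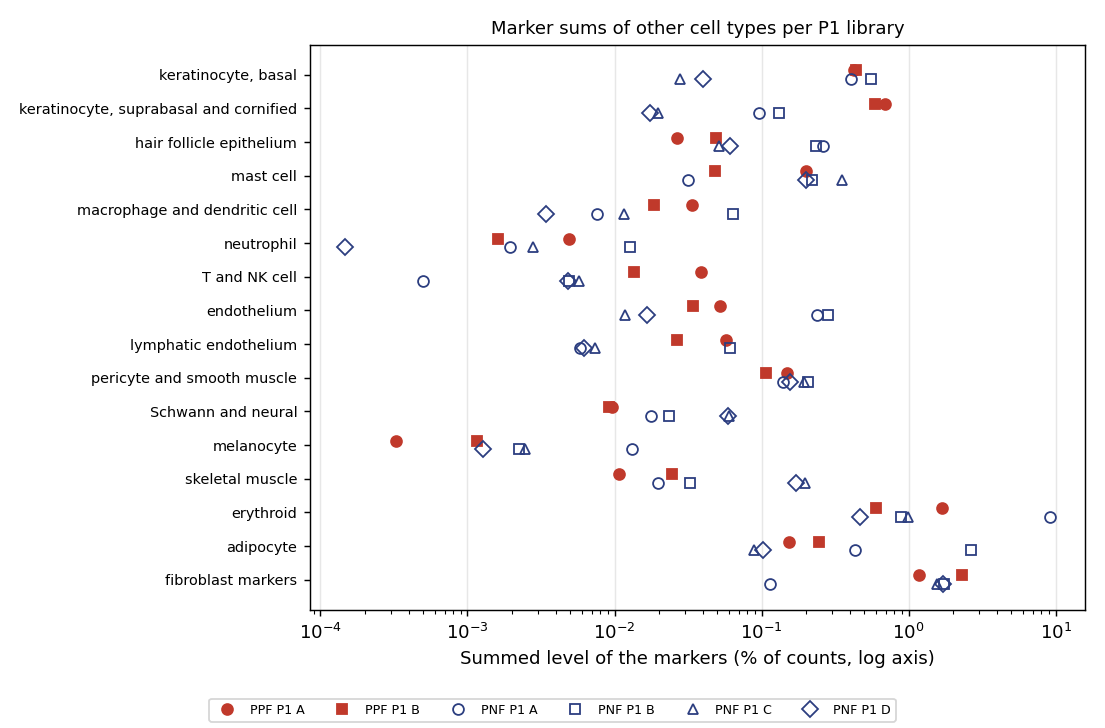
Summed level of the markers of each cell type as a percentage of counts per P1 library, on a log axis, with filled symbols for PPF and open symbols for PNF. The PPF libraries are the 2 highest for suprabasal keratinocyte genes, at 0.591% and 0.687%, and the 2 lowest for Schwann and neural genes, and PNF A lies far left for fibroblast markers at 0.115%.

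The P1 differences were set against the lineages before birth, in 2 PPF and 2 PNF libraries at E16.5 and 2 PPF and 4 PNF libraries at E18.5, from the same strain label and ventral skin, which share no library with P1. CPM here were scaled over these 16 libraries. The libraries of both ages were uneven. PPF E16.5 A had 13308 genes with a count, against 15307 to 18267 in the other E16.5 libraries. Its few most abundant genes held 23.2% of counts, against 12.3% to 15.0%. Mitochondrial genes held 14.1% in it, against 7.29% to 9.38%. Genes with a count numbered 12039 and 11892 in PPF E18.5 A and B and 11765 in PNF E18.5 A. PNF E18.5 B, C and D had 15669 to 17028. In PNF E18.5 A the few most abundant genes held 46.3% of counts, against 10.3% to 11.9% in the other E18.5 libraries. The part of this unevenness in the orders at E16.5, at E18.5 and over all 3 ages was not tested. Of 1210 genes above all PNF libraries at P1 and measured at all 3 ages, 323 (26.7%) were also above at E16.5, where 17.3% of all genes were, and 150 (12.4%) at E18.5, where 11.0% of all genes were. Opposite order was found for 204 and 153 of them. For the 1100 genes below at P1, 330 (30%) were below at E16.5, against 26.2% of all genes, and 194 (17.6%) at E18.5, against 14.5%. At E18.5 the share for the genes above was thus close to that of all genes.

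Above at all 3 ages were 62 of 12894 genes (0.48%), and below at all 3 ages 71 (0.55%). Positional genes were among the former: 4 of 13 HOX genes of groups 9 to 13 (Hoxa9, Hoxb9, Hoxc9 and Hoxc10), Hoxc6, and 4 of 25 limb and lateral plate factors (Twist2, Osr2, Tbx18 and Hand2). En1 and Irx1 were also above at each age. Mean levels of Hoxb9 in PPF were 50.1 CPM at E16.5, 82.8 at E18.5 and 70.8 at P1, against 8.99, 13.6 and 12.9 CPM in PNF. En1 had means of 27.8, 53.5 and 44.1 CPM in PPF and 12.48, 7.79 and 8.87 CPM in PNF at the same ages. For these genes the order of the lineages was the same at each age, and the change of the log2 difference from before birth to P1 was -0.08 for Hoxb9 and 0.35 for En1, with adjusted p from edgeR of 1 and 0.995.

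Dermal genes above at all 3 ages were Crabp1 and Cyp26b1 of the papillary list, Thy1, Col6a2, Fbln1, the signalling genes Dkk1, Rspo3, Fzd2 and Gli1, and Atoh8. Crabp1 means were 3533, 1985 and 832 CPM in PPF and 1322, 608 and 181 in PNF at E16.5, E18.5 and P1, so its level was lower at P1 in both lineages. Below at all 3 ages were Isl1, Serpine2, Chodl, Acta1, Cavin2, Slc38a1, and the Schwann genes Erbb3, Foxd3 and Sox10. Of the 14 leading genes in each direction at P1, 9 had the same order at E16.5 and 5 at E18.5 in the higher set, and 9 and 5 in the lower set. Thbs4 shows the other case: it was higher in PPF at E16.5 (88.7 and 80.9 CPM against 30.8 and 39.0) and lower at E18.5, where both PPF libraries were at 0, and at P1.

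The change of the lineage difference from before birth to P1 was tested in the 16 libraries, and 3 of 14511 genes passed edgeR (0.0207%), with 1350 at an unadjusted p under 0.05; DESeq2 called 274. Ly6a had 622 and 388 CPM in PPF and 101 and 130 CPM in PNF at E16.5, 0 in both PPF libraries against 78.2 to 278 CPM in PNF at E18.5, and 736 and 942 against 117 to 342 at P1 (edgeR adjusted p 0.00873). Qpctl, a glutaminyl cyclase of the Golgi, was at 0 in both PPF libraries at E18.5 and between 22.3 and 48.8 CPM in all other libraries, in PPF 32.5 and 44.6 at P1 (edgeR adjusted p 0.0134). Klk8, a protease of the epidermis, had PPF means of 8.64, 0 and 28.4 CPM against 59.4, 56.9 and 13.3 CPM in PNF at the 3 ages (edgeR adjusted p 0.0153). In all 3 the E18.5 PPF libraries without a count enter the difference, and fits that left out PPF E18.5 B called none of them. Both E18.5 PPF libraries also had fewer genes with a count than PNF E18.5 B, C and D. The 3 calls were also lost in voom, in the replicate block (adjusted p 0.165 for Ly6a), with libraries A and B only and with all 24 libraries. Those of Qpctl and Klk8 were lost with C and D summed and in fits without PNF E16.5 A, PPF E16.5 A, PNF P1 C, PNF P1 D or PPF P1 A.

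Krt10 and Krtdap, of the suprabasal keratinocyte list, had opposite orders at E16.5 and P1, whereas Lor of the same list was lower in PPF at E16.5 and overlapped at P1. Krt10 had 44.5 and 37.3 CPM in PPF against 722 and 576 CPM in PNF at E16.5, then 9.97 and 20.8 against 11.0, 48.3, 1136 and 1226 at E18.5, and was higher in PPF at P1. Krtdap had means of 28.1, 0.0739 and 1189 CPM in PPF and 1483, 860 and 94.7 CPM in PNF at the 3 ages. Lgals7 and Stfa1 had the same order, lower in PPF at both earlier ages and higher in the PPF mean at P1, with edgeR adjusted p of 0.0576 for each of these 4 genes and DESeq2 adjusted p of 2.73e-07 for Krt10 and 3.24e-09 for Krtdap. The sequences upstream of Krt10 and Krtdap are shown because these genes share this pattern, beside those of Twist2, Hand2 and Crabp1, which were above in PPF at every age. They are from RefSeq (GRCm38.p6), where all 5 genes had an entry, read 5′ to 3′ on the gene's strand and end at its start, and capitals mark TATAAA, searched on both strands.
Krt10, chr11:99389365-99389614, minus strand: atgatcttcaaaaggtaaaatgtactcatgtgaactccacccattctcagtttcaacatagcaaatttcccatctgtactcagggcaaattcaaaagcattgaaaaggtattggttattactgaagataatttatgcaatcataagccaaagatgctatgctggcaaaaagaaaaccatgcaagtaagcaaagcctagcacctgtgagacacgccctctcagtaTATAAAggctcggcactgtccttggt
Krtdap, chr7:30787655-30787895, plus strand: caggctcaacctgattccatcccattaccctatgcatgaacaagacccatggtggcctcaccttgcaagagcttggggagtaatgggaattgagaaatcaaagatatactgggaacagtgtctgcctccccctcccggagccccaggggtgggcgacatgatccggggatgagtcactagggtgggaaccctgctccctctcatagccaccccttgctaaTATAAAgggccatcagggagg
Twist2, chr1:91801211-91801460, plus strand: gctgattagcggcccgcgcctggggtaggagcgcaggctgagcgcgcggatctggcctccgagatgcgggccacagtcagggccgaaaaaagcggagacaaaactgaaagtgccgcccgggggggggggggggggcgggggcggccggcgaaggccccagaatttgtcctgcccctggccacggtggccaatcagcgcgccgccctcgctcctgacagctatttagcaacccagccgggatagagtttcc
Hand2, chr8:57320733-57320982, plus strand: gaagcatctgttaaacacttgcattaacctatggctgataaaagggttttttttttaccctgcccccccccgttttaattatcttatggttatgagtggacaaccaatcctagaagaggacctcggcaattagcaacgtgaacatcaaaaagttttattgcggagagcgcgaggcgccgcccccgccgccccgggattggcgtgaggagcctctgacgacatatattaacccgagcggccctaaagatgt
Crabp1, chr9:54764498-54764747, plus strand: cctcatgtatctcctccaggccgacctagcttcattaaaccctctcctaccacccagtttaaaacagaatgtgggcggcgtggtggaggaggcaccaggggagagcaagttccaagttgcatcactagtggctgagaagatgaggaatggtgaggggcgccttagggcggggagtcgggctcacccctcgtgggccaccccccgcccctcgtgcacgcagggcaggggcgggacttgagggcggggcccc

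Krt10 and Krtdap hold TATAAA in the last 100 bases and the windows of Twist2, Hand2 and Crabp1 do not hold it on either strand. Over 27025 RefSeq upstream windows of 250 bases, 4.14% hold TATAAA in the last 100 bases on the gene's strand and 12.97% hold it anywhere on either strand. The Krtdap sequence shown is 241 bases long, shorter than these windows. The Krt10 and Krtdap sequences hold 2 and 3 CG dinucleotides, and those of Twist2, Hand2 and Crabp1 hold 23, 15 and 12, where the median of all windows is 6 and the 10th to 90th percentiles run from 1 to 25. A match of these letters describes the sequence and is not a site.

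**Figure D5:**
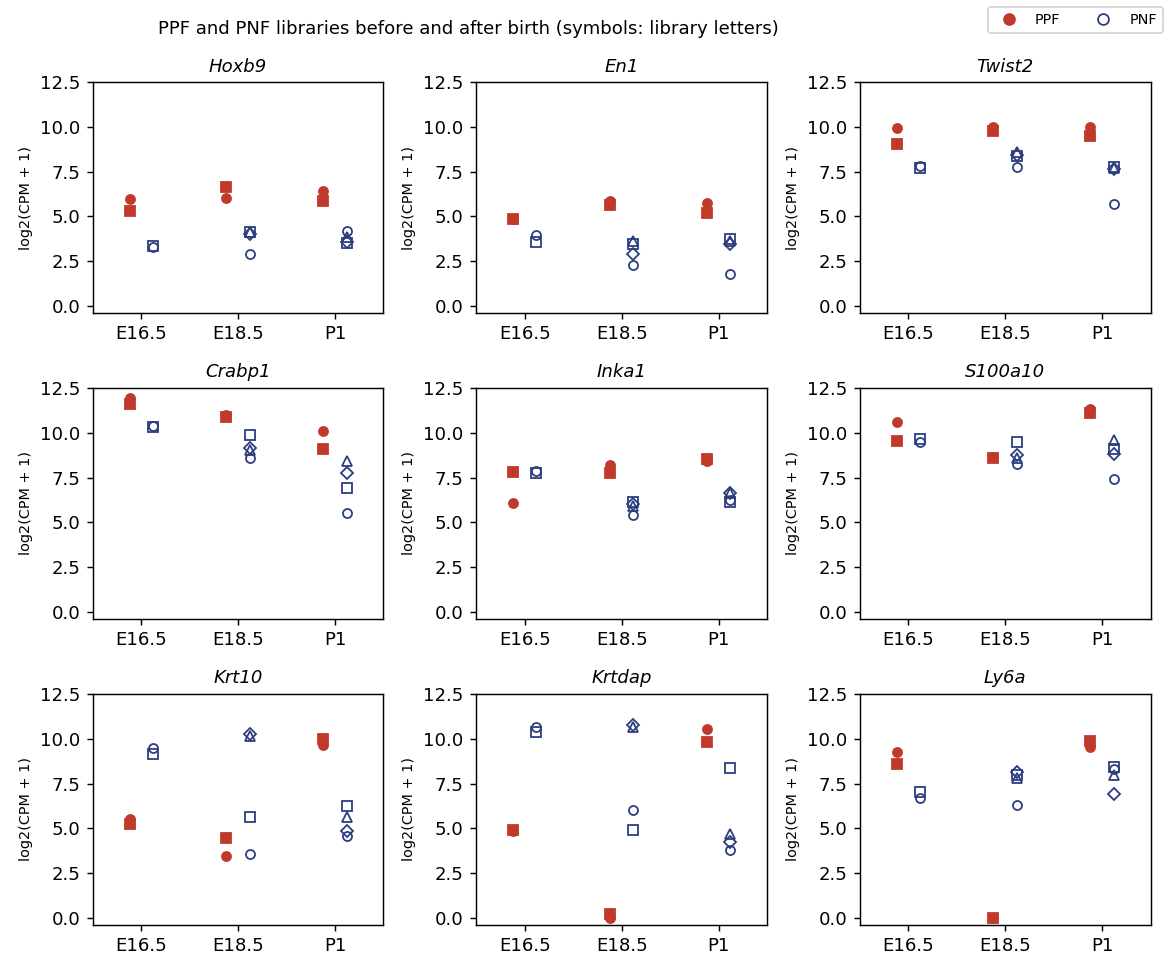
Levels of 9 genes as log2(CPM + 1), scaled over 16 libraries, by age (x axis: E16.5, E18.5, P1), with filled red symbols for PPF and open blue symbols for PNF libraries. Hoxb9, En1, Twist2 and Crabp1 are higher in every PPF library at each age, Krt10 and Krtdap have opposite orders at E16.5 and P1, and Ly6a is at 0 in both PPF libraries at E18.5.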

How the data were processed

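Bulk RNA of sorted ventral skin fibroblasts was sequenced as read pairs of 75 bases from amplified low-input cDNA, per the labels' protocols. The authors deposited read counts per transcript, made with featureCounts per the file headers, on mm10 per the submitters' processing notes. The aligner, the counting settings and the annotation are not given in the sources used here. The deposited TPM values, computed by the authors per the file headers, were used only for levels per transcript length at P1.

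Counts of the 82916 transcripts found among 95883 in GENCODE M21 (GRCm38) were summed to 34002 genes. Transcripts that were not found held 5.101% of P1 counts and were left out. How reads shared by several transcripts were treated is not given, and the effect on genes with overlapping transcripts was not tested.

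The main test was edgeR 4.0.16 in R 4.3.3 (filterByExpr, TMM, quasi-likelihood, two-sided, Benjamini-Hochberg over all 13135 genes, threshold 0.05) on the 6 P1 libraries. The fit had 4 residual degrees of freedom, a common biological coefficient of variation of 0.863 and a prior of 3.45. The change from E16.5 and E18.5 to P1 was the PPF minus PNF difference at P1 minus its mean at both earlier ages, in 16 libraries. CPM are counts scaled to TMM-adjusted library size. PNF C and D differed beyond sampling noise (chi-square per degree of freedom 57.6) and were kept apart. The cDNA was amplified and the labels name no molecular identifiers for the bulk libraries, so the floor of 3 counts covers counting error only. Same-lettered libraries deviated together with r of 0.111 (A) and 0.012 (B), so letters were not taken as pairs.

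Named genes were up to 14 per direction with the smallest p, at least 10 CPM in the higher group, 1.5-fold and no overlap, up to 4 per list, Prrx1 and fibroblast markers, and up to 8 per direction for the change. Predicted, pseudogene, antisense, microRNA, ribosomal, clone and sex-linked names were left out of the first set. Other members in a list's count are named after their values were seen. Members and lists were chosen with earlier results of these data known. Alternatives were DESeq2 1.42.0, limma 3.58.1 (voom), other scaling and filters, all 24 or 16 libraries, A and B only, C and D summed, a replicate block, unmatched transcripts kept and each library left out. The edgeR and DESeq2 fits were tested on counts simulated with the spread of the P1 libraries and 200 changed genes, with the outcome given in the Results. Single-cell samples were not used. Some genes that the rule names are not reported here.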

Additional observations from a re-analysis of the deposited data

Results flagged for a closer look

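For each gene and marker sum of the P1 comparison, the 4 PNF libraries were checked for 1 that stood far from the other 3, by Dixon's test of the gap at its 95% critical value. Chance marks about 1 in 20 groups, and the libraries share their cells' other RNA, so these flags are not independent. Of 149 genes and sums checked, 14 stood out. PNF A was far from the rest for Irx1 (31.8 CPM), Twist2 (54.6 CPM) and Mki67 (560 CPM). PNF B was far from the rest for Krtdap (330 CPM) and Stfa1 (256 CPM). Skint9 was flagged at 0.118 CPM in PNF B only because the other 3 were at 0, where any count gives a flag.

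In PNF A, the sum of fibroblast markers was low (0.115% of counts), and the sums of HOX genes of groups 1 to 8 (0.0152%), melanocyte (0.0132%) and erythroid genes (9.19%) were high. PNF B had the highest sums of complement (0.774%), macrophage and dendritic cell (0.0638%), lymphatic endothelial (0.0608%) and adipocyte genes (2.65%). All of these libraries carry the same label, and the cause was not tested.

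Between ages, the lineage difference changed by 7.49 on the log2 scale for Ly6a, 5.42 for Qpctl and 8.39 for Klk8, from before birth to P1, by edgeR's test of the change. Each was at 0 in both PPF libraries at E18.5, so the fitted size depends on the prior count and is no measure of the change.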

How the results depend on the processing

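The P1 comparison gave 0 called genes in edgeR under RLE and upper quartile scaling, both other filters, libraries A and B only, C and D summed, the replicate block, unmatched transcripts kept, all 24 and 16 libraries, and each library left out (0 to 0). DESeq2 called 152 and limma voom 1, and DESeq2 passed 40 of the genes named here; the cause was not tested. Counts without overlap were added after the data were seen. With libraries A and B only, 2225 genes lay above and 2394 below, where fewer samples make separation easier. Leaving out 1 library, with filter and scaling redone, gave 1389 to 2965 above and 1236 to 2418 below. For the change to P1, DESeq2 called 274, no filter on low counts 80, all 24 libraries 13, C and D summed 1, A and B only 0 and the replicate block 0, and leaving out 1 library gave 0 (PPF E18.5 B) to 39 (PNF E18.5 A). The log2 difference of Col1a1 at P1 ranged from -0.31 to 0.57 and that of Lor from -0.65 to 5.95 with 1 library left out, so neither has a stable sign. The 2 PPF libraries and the spread between PNF libraries limit the precision at P1.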
